A study of Mus musculus with 48 samples.

Results

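The genes described here encode respiratory complexes II, III, IV and V of the mitochondrial inner membrane. Members were the protein-coding genes whose symbols begin with Uqcr, Atp5 or Cox followed by a digit from 4 to 8, together with Sdha, Sdhb, Sdhc, Sdhd, Cyc1 and the mitochondrially encoded mt-Cytb, mt-Co1, mt-Co2, mt-Co3, mt-Atp6 and mt-Atp8. Cox8b and Cox7a1 were left out by the rule, and 8 symbols that matched it are pseudogenes and were not counted. This gave 53 of the 55471 genes in the deposited count files: 4 for complex II, 10 for complex III, 19 for complex IV and 20 for complex V. Of these, 47 are nuclear and 6 lie on the mitochondrial genome. The rule names genes and uses no measured value.

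Complex II (succinate dehydrogenase) links the citric acid cycle to the chain by passing electrons from succinate to ubiquinone. Complex III (cytochrome bc1) passes them from ubiquinol to cytochrome c, complex IV (cytochrome c oxidase) passes them on to oxygen, and complex V (ATP synthase) uses the resulting proton gradient to make ATP. Complex II is wholly nuclear-encoded, whereas complexes III, IV and V each need subunits translated inside the mitochondrion. Several subunits of complex IV and subunit c of complex V have more than one nuclear gene, with isoforms that differ between tissues.

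Messenger RNA was sequenced in 48 mouse libraries, 30 from epididymal white adipose tissue (eWAT, the visceral fat pad next to the epididymis) and 18 from cells that were sorted from that tissue and carry the label of macrophages (F4/80+, CD11b+, CD64+). The eWAT groups were wild type (WT) on control diet (n = 7), adipose-specific Txnip knockout (KO) on control diet (n = 7), WT on ketogenic diet (n = 8) and KO on ketogenic diet (n = 8). The macrophage-labelled groups held 6 WT and 6 KO libraries on control diet and 3 WT and 3 KO libraries on ketogenic diet. The promoter that drives the deletion, the strain, the age and the time on diet are not given in the sources used here, nor is it said whether libraries are separate animals, so p-values measure the spread between libraries.

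Library totals were 34735011 to 59847259 gene counts in eWAT on control diet, 17417852 to 39033932 on ketogenic diet, and 36935690 to 59731060 in the macrophage-labelled libraries. Control and ketogenic libraries carry different title prefixes, so a diet difference cannot be told apart from a difference between the sets of libraries. Txnip, the gene named as deleted, was higher in the KO-labelled eWAT libraries on control diet (log2 fold change 0.69 ± 0.09 SE, adjusted p = 0.00085), against the label. The predicted gene Gm11868 lay between 0.506 and 1.35 CPM (counts scaled to library size) in the WT-labelled and between 3.48 and 6.67 CPM in the KO-labelled eWAT libraries. In the macrophage-labelled ketogenic libraries it was 4.65, 4.54 and 0.970 CPM with the WT label and 3.89, 1.30 and 1.02 CPM with the KO label, so 4 of 6 libraries went against that pattern. Genotype below therefore means the label. The summed level of 12 macrophage markers was 352 to 1760 CPM in the macrophage-labelled libraries. The sums were 4786 to 7447 CPM for 6 endothelial and 7826 to 12610 CPM for 10 adipocyte markers, so the macrophage label was not borne out by these markers. The adipocyte sum did not rest on Adipoq, which was 12.8 to 36.1 CPM there and 2728 to 4339 CPM in the eWAT libraries.

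Levels were read as TMM-normalized CPM and, between genes, as CPM per kilobase of the gene's median protein-coding transcript. The order per kilobase depends on that length. The divisor was the median itself, which need not be the length of any transcript. A transcript nearest the median had 580 bases for Uqcrc1 and 691 for Atp5g1, whose exons together cover 4135 and 4912 bases. For Atp5g1, at a mean of 18.9 CPM in WT control libraries, the divisor was longer than 691 bases. Its low value per kilobase rests on that longer length. In WT eWAT on control diet the highest nuclear members per kilobase were Atp5b, the catalytic beta subunit of ATP synthase (656), Cox4i1, the common subunit 4 of complex IV (457), and Cox6b1, which lies on the outer face of complex IV (363). Atp5a1 (322), Atp5g3 (310), Sdha (307) and Uqcrc1 (304) followed. The mitochondrially encoded mt-Co1 and mt-Cytb, the core subunits of complexes IV and III, stood at 11097 and 9252 CPM per kilobase. At the low end were Atp5g1 (7.05), Cox6b2 (4.18) and Cox4i2 (3.34), and 8 members were too low to be tested between genotypes.

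Those 8 were Cox6a2, Cox7b2, Cox8c, a second Ensembl gene named Atp5o, mt-Co2, mt-Co3, mt-Atp6 and mt-Atp8. Cox6a2, the heart and skeletal muscle form of subunit 6A, ranged from 0 to 0.215 CPM, Cox7b2 from 0 to 0.118 CPM and the testis-type Cox8c from 0 to 0.160 CPM over all 48 libraries. The second Atp5o gene was at 0 in all 48 libraries. The 4 mitochondrially encoded genes among the 8 were low where mt-Co1 and mt-Cytb were the highest members. All 50-base windows of mt-Co2, 99.9% of those of mt-Co3 and 99.5% of those of mt-Atp6 also occur in the annotated transcript of another gene, for each a pseudogene copy on chromosome 1 (Gm28661, Gm28437 and Gm10925). For mt-Co1 the share was 51.1%, and for mt-Cytb and mt-Atp8 it was 0. The deposited tables have the layout of STAR's gene counts, which take only uniquely mapped reads, so the counts of genes with such copies are uncertain.

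The first bases of mt-Co1 and mt-Atp6 are shown because they hold windows shared with other genes to different extents. Sequences are from the GENCODE vM21 transcripts of GRCm38, on the plus strand at chrM:5328-5527 and chrM:7927-8046, and capitals mark bases inside a 50-base window that also occurs in a transcript of another gene.
mt-Co1: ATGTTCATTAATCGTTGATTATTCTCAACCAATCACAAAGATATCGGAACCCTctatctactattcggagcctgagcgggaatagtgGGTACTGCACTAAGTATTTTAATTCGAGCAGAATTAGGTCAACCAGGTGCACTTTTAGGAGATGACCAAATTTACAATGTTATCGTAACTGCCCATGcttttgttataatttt
mt-Atp6: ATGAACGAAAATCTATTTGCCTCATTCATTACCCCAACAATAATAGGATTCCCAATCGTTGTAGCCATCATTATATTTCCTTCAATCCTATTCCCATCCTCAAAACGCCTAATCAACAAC
In this stretch of mt-Co1 150 of 200 bases lay in shared windows, and in mt-Atp6 all 120 did. Shared windows and level did not go together in each gene: mt-Co1 was the highest member per kilobase, and mt-Atp8, with none shared, was at most 0.286 CPM. The search covered annotated transcripts only, so copies elsewhere in the genome would not be counted. mt-Atp8 lies at chrM:7766-7969, beside mt-Co2 and overlapping mt-Atp6. What set these levels was not tested.

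**Figure D1:**
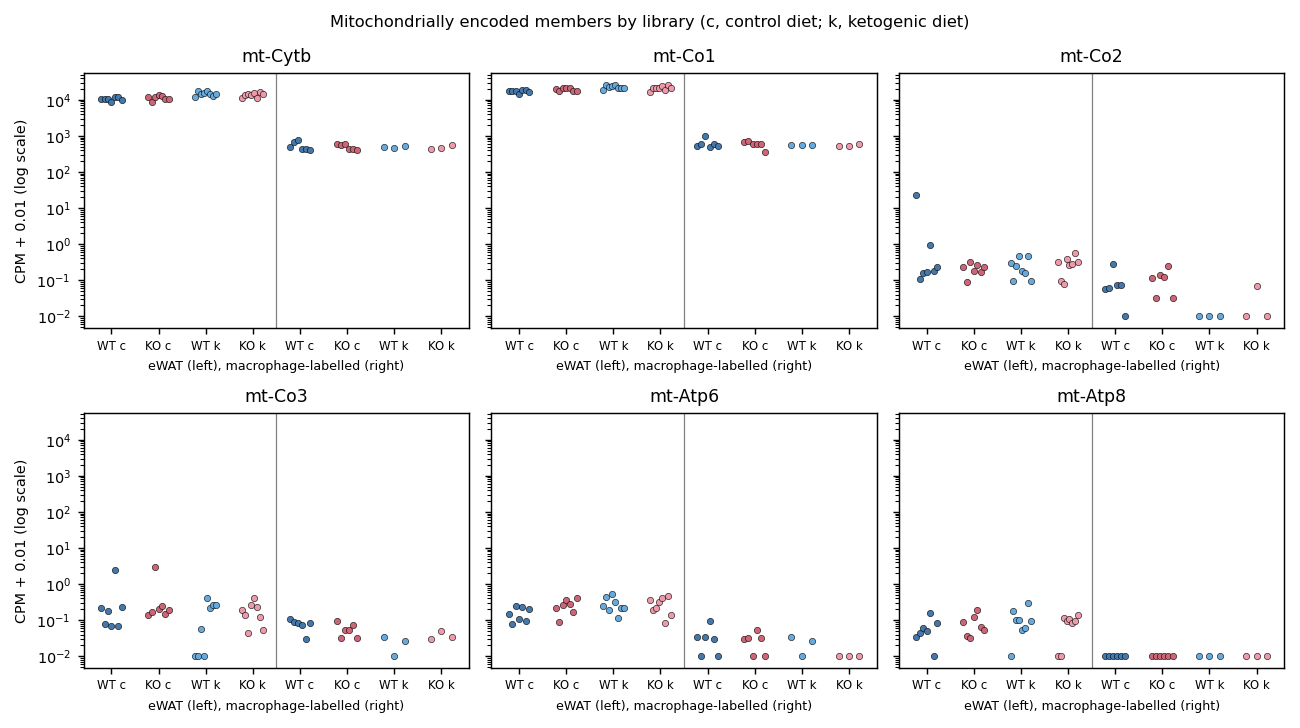
CPM + 0.01 (log axis) of the 6 mitochondrially encoded members in each library (points), with the 4 eWAT groups left and the 4 macrophage-labelled groups right of the line. mt-Cytb and mt-Co1 lie between 8596 and 25974 CPM in the eWAT libraries, while mt-Co2 exceeds 1 CPM in 1 library, at 23.6 CPM.

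In eWAT mt-Co1 ranged from 14341 to 25974 CPM and mt-Cytb from 8596 to 17755 CPM, and in the macrophage-labelled libraries from 366 to 1003 CPM and from 402 to 774 CPM. The tissues were prepared with different kits, so these levels were not compared by a test. The single eWAT library with 23.6 CPM of mt-Co2, WT control replicate 1, also had 20.7 CPM of Ucp1, the uncoupling protein of thermogenic fat, which was at most 0.443 CPM in the other 29 eWAT libraries. mt-Co3 exceeded 1 CPM in WT control replicate 5 (2.51 CPM) and KO control replicate 3 (2.90 CPM) alone among eWAT libraries.

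On control diet, the members called in eWAT were lower with the KO than with the WT label, mostly in complexes III and V. Of 45 members tested 15 fell and none rose, where 11.6% of all 16746 tested genes fell and 16.0% changed in either direction (edgeR quasi-likelihood test, Benjamini-Hochberg adjusted p under 0.05). The median log2 fold change of the 45 was -0.12, against 0.01 over all genes. Calls fell on 1 of 4 members of complex II, 6 of 10 of complex III, 2 of 14 tested of complex IV, where 6 had log2 fold changes above 0, and 6 of 17 tested of complex V. In 10 members every KO library lay below every WT library, a separation that 3.33% of all genes showed.

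In complex II, Sdhb, the iron-sulfur subunit (chromosome 4, 140961203 to 140979193), ranged from 115 to 128 CPM with a median of 122 in WT libraries and from 79.0 to 101 CPM with a median of 90.8 in KO libraries. The groups did not overlap, and the log2 fold change was -0.42 ± 0.05 (adjusted p = 0.00085). The other members did not pass the test: the flavoprotein Sdha had a log2 fold change of -0.07 ± 0.06, and the membrane anchors Sdhc and Sdhd had -0.09 ± 0.07 and -0.14 ± 0.06.

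Complex III held the largest differences. Uqcrq (chromosome 11, 53427922 to 53430831), a small subunit that binds ubiquinone in the bovine enzyme, ranged from 39.3 to 88.5 CPM with a median of 59.3 in WT and from 15.7 to 36.8 CPM with a median of 22.2 in KO libraries. Its log2 fold change was -1.35 ± 0.21 (adjusted p = 0.0022), the largest of any member in this comparison. Uqcr11 (chromosome 10, 80402997 to 80406830), the smallest subunit, ranged from 50.7 to 78.1 CPM (median 65.0) in WT and from 16.5 to 46.1 CPM (median 32.1) in KO libraries, a log2 fold change of -1.06 ± 0.18 (adjusted p = 0.0034). In both genes all KO libraries lay below all WT libraries and KO replicate 3 was the lowest. The core protein Uqcrc1 fell by 0.46 ± 0.08, Uqcr10 by 0.36 ± 0.10, the heme-bearing Cyc1 by 0.29 ± 0.07 and the Rieske iron-sulfur protein Uqcrfs1 by 0.18 ± 0.05 on the log2 scale. The second core protein, Uqcrc2, had a log2 fold change of -0.01 ± 0.07, Uqcrb 0.04 ± 0.06 and the hinge protein Uqcrh 0.07 ± 0.06, and the mitochondrially encoded mt-Cytb had 0.12 ± 0.10, none past the test.

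In complex IV, Cox6a1 (chromosome 5, 115345642 to 115348981), the widespread form of subunit 6A, ranged from 78.2 to 146 CPM (median 95.9) in WT and from 65.6 to 77.5 CPM (median 75.2) in KO libraries, with a log2 fold change of -0.55 ± 0.12 (adjusted p = 0.0089). Cox4i1 ranged from 321 to 376 CPM (median 335) in WT and from 215 to 294 CPM (median 277) in KO libraries, with a log2 fold change of -0.33 ± 0.07 (adjusted p = 0.0065). Neither pair of groups overlapped, though the highest KO library for Cox6a1 came within 1 CPM of the lowest WT library. With an offset for GC content neither was called, at 0.06 ± 0.09 for Cox6a1 and -0.15 ± 0.05 for Cox4i1. The mitochondrially encoded core subunit mt-Co1 had a log2 fold change of 0.18 ± 0.08 (adjusted p = 0.12).

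In complex V the c-subunit gene Atp5g3 (chromosome 2, 73908447 to 73911326) had the smallest p of all members: 197 to 271 CPM (median 226) in WT and 137 to 155 CPM (median 143) in KO libraries, with a log2 fold change of -0.60 ± 0.06 (adjusted p = 3e-04). Atp5d, the delta subunit of the central stalk, ranged from 63.6 to 109 CPM (median 86.2) in WT and from 30.8 to 66.5 CPM (median 50.3) in KO libraries, with a log2 fold change of -0.74 ± 0.16 (adjusted p = 0.0073). Its groups overlapped in 63.6 to 66.5 CPM, and those of Atp5g3 did not overlap. Atp5e, the epsilon subunit beside it in the stalk, fell by 0.41 ± 0.09, Atp5g2 by 0.38 ± 0.09, the peripheral stalk subunits Atp5f1 and Atp5o by 0.29 ± 0.04 and 0.23 ± 0.08. The catalytic head subunits were not called: Atp5a1 had a log2 fold change of -0.18 ± 0.06 (adjusted p = 0.072) and Atp5b -0.06 ± 0.07.

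**Figure D2:**
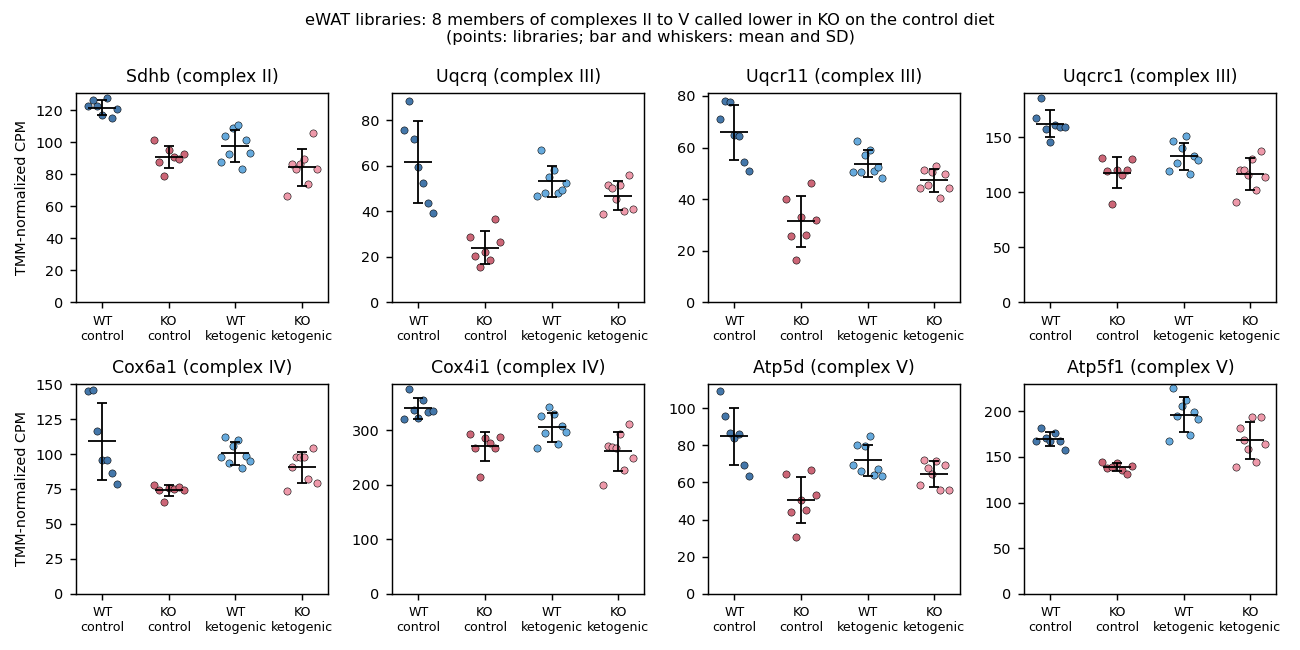
TMM-normalized CPM of 8 members of complexes II to V in each eWAT library (points) with the mean and SD of each group (bar and whiskers). On control diet the KO libraries of 7 of the 8 genes lie below all WT libraries, and Atp5d overlaps. On ketogenic diet the groups of all 8 genes overlap.

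Genes that build and serve these complexes were also tested, in short lists, where 11.6% of all genes fell and 16.0% changed in either direction. Their values with the GC offset are not given here. Assembly factors fell in 2 of 6 for complex III (Uqcc2, log2 fold change -0.76 ± 0.16, and Uqcc3, -0.42 ± 0.11) with 1 higher (Ttc19, 0.24 ± 0.07), in 6 of 21 tested for complex IV (among them Cox16, -1.24 ± 0.18, and Coa6, -0.63 ± 0.17), in 1 of 3 for complex V (Atpaf2, -0.24 ± 0.08) and in none of 4 for complex II. Of 14 electron carrier genes (coenzyme Q synthesis, cytochrome c and electron-transfer flavoproteins) 3 fell, led by Coq8a (-0.33 ± 0.06) and Coq7 (-0.30 ± 0.07). Of 13 regulators of mitochondrial transcription 2 fell: Polrmt, the mitochondrial RNA polymerase (-1.01 ± 0.18), and Esrra, the nuclear receptor ERR alpha (-0.71 ± 0.13). Complex I, given for comparison, had 21 lower and 1 higher of 42 tested genes, with a median log2 fold change of -0.21.

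Other measures moved with this comparison. The summed level of 10 adipocyte markers was 45960 to 53450 CPM in WT and 38000 to 47660 CPM in KO libraries, and Plin1, Cfd, Cidec and Lipe of that list were called lower and none higher. Endothelial markers were higher in 4 of 6 (Pecam1, Tek, Emcn and Kdr), summed to 845 to 981 CPM in WT and 995 to 1142 CPM in KO libraries. Of 12 macrophage markers C1qa, C1qb and C1qc fell and Lyz2 rose, with sums of 1465 to 1914 CPM and 1438 to 2343 CPM. Among thermogenic adipocyte markers Cox8b fell by 1.46 ± 0.33 and Cidea by 0.96 ± 0.31 on the log2 scale. Bulk tissue cannot tell fewer cells of a type from less RNA per cell. Per-library levels also leaned with GC content: the slope of log2 level on GC, per 0.1 of GC fraction, was 0.126 to 0.372 in WT and -0.300 to 0.178 in KO libraries, and over the 45 members the log2 fold change had a Spearman correlation of -0.48 with GC content, against -0.59 over all genes. Uqcrq was 75.9 CPM in the WT library with the highest slope and 39.3 CPM in the WT library with the lowest. Among KO libraries it was 36.8 CPM at the highest slope and 15.65 CPM at the lowest. With an offset for GC content per library 12 members were called, 10 of them among the 15. The median log2 fold change of members was then -0.11, against 0.01 over all genes. The share of all genes called with this offset is not given here. Uqcrq (-1.33 ± 0.20), Atp5g3 (-0.68 ± 0.07), Uqcr11 (-0.64 ± 0.10), Sdhb (-0.30 ± 0.04) and Atp5d (-0.29 ± 0.07) stayed called, while Cyc1, Cox4i1, Cox6a1, Atp5g2 and Atp5o did not, and the sign turned for Cox6a1 and for Cyc1 (0.23 ± 0.12). The part of these markers in the result was not tested.

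**Figure D3:**
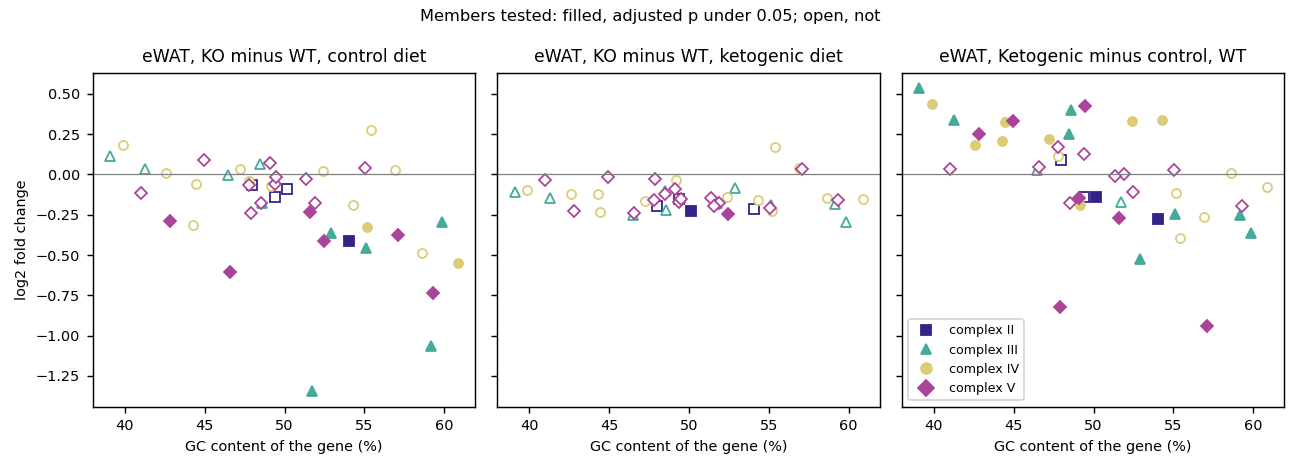
Log2 fold change of each tested member against the GC content of its gene (%) in 3 eWAT comparisons (symbols, complexes; filled, adjusted p under 0.05). The members fall with GC in the left and right panels (Spearman -0.48 and -0.63, 45 members each), and in the middle panel, KO against WT on ketogenic diet, it is -0.11.

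On ketogenic diet, Atp5e and Sdhc were lower in eWAT with the KO label. Of 45 members tested 2 fell and none rose, where 1.88% of all 15225 tested genes fell and 3.36% changed in either direction. Log2 fold changes ran from -0.30 to 0.17, 42 of 45 were below 0, and their median was -0.16 against 0.00 over all genes. An unadjusted p under 0.05 was reached by 27 of the 45 members, and by 2872 of the 15225 genes. DESeq2 called 6 members, all lower, and its share over all genes is not given here. No member had groups that did not overlap, where 0.427% of all genes did.

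Atp5e ranged from 56.5 to 67.6 CPM (median 62.8) in WT and from 46.8 to 59.1 CPM (median 53.1) in KO libraries, with a log2 fold change of -0.24 ± 0.05 (adjusted p = 0.020). Sdhc ranged from 132 to 161 CPM (median 140) in WT and from 106 to 137 CPM (median 124) in KO libraries, with a log2 fold change of -0.23 ± 0.06 (adjusted p = 0.039). Both pairs of groups overlapped at their edges, and the call on Sdhc was lost in 10 of 16 fits that left out 1 library. The genes with the largest changes on control diet had log2 fold changes of -0.18 ± 0.09 (Uqcrq), -0.18 ± 0.06 (Uqcr11), -0.16 ± 0.07 (Atp5d) and -0.24 ± 0.07 (Atp5g3), none past the test. The summed level of 12 macrophage markers was 901 to 1280 CPM in WT and 1051 to 2080 CPM in KO libraries, with 2 of 12 called higher, and that of adipocyte markers was 46580 to 55550 CPM in WT and 34760 to 49280 CPM in KO libraries. Their part in the result was not tested.

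The difference between the 2 diets in the genotype contrast was tested as an interaction. Of 47 members tested 4 were called, all with a less negative genotype difference on ketogenic diet, where 8.31% of 17140 genes were called, 6.96% in that direction. They were Uqcrq (1.18 ± 0.22, adjusted p = 0.0029), Uqcr11 (0.89 ± 0.19, adjusted p = 0.0047), Atp5d (0.59 ± 0.17, adjusted p = 0.031) and Atp5g3 (0.37 ± 0.10, adjusted p = 0.018), each a difference of log2 fold changes. The medians of Uqcrq were 59.3, 22.2, 50.9 and 47.9 CPM in WT control, KO control, WT ketogenic and KO ketogenic libraries, and every KO control library (15.7 to 36.8 CPM) lay below every library of the other 3 groups (38.9 to 88.5 CPM). With the GC offset Uqcrq (1.14 ± 0.22) and Atp5g3 (0.45 ± 0.10) stayed called, Uqcr11 (0.45 ± 0.12, adjusted p = 0.062) and Atp5d (0.12 ± 0.11) did not, and Atp5k was called with the opposite sign. The call on Atp5d was also lost without KO control replicate 3, with adjusted p = 0.074.

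**Figure D4:**
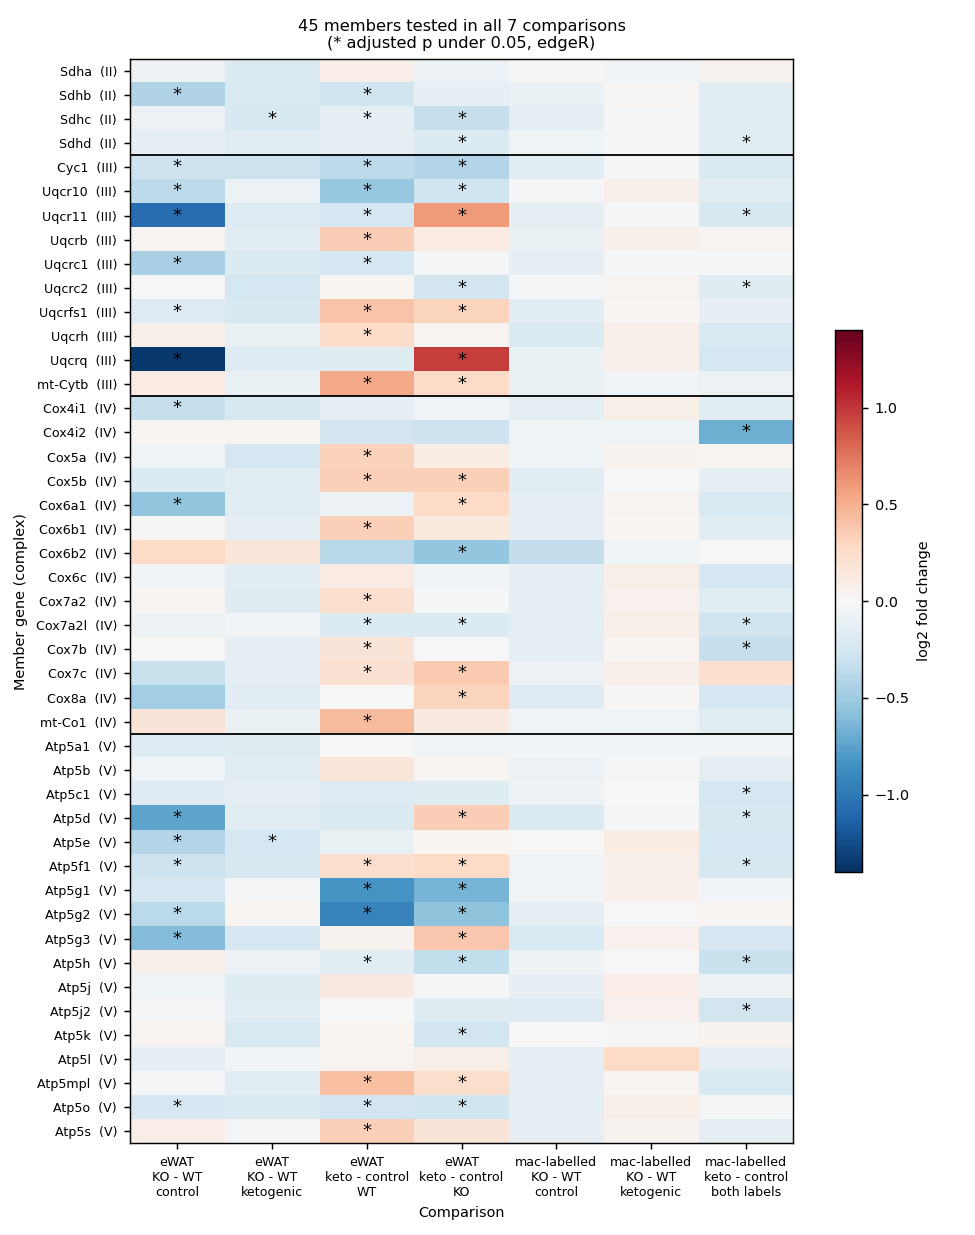
Log2 fold change (color) of the 45 members tested in 7 comparisons (columns), ordered by complex (rows), with stars at adjusted p under 0.05. The first column holds 15 calls, all lower, the columns for diet in eWAT hold calls in both directions (14 higher and 11 lower, 12 higher and 12 lower), and the macrophage-labelled genotype columns hold none.

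Ketogenic against control libraries in eWAT gave calls in both directions in complexes III, IV and V, and in complex II 2 of 4 members fell and none rose in each genotype. With the WT label 14 of 45 tested members rose and 11 fell, against 53.8% of 15569 genes called, 26.8% higher and 27.0% lower. With the KO label 12 of 46 rose and 12 fell, against 39.5% of 16483 genes called, 19.8% higher and 19.7% lower. In these fits, without an offset, the share of members called was near that of all genes with the WT label and above it with the KO label. The median log2 fold changes were 0.01 and -0.01. In 5 members with the WT label every ketogenic library lay below every control library and in 1 above (11.5% and 9.51% of all genes), and with the KO label in 1 and 3 members (4.96% and 7.46%). With offsets for GC content and length the calls were 14 higher and 6 lower with the WT label and 13 higher and 6 lower with the KO label, without the low-count filter 11 higher and 14 lower with the WT label, and without WT control replicate 1, which held Ucp1, 12 higher and 14 lower. With the GC offset alone 17 members were called with the WT label, 10 of them in common with the 25. With the KO label it called 16, of which 15 were among the 24. The shares over all genes under these other settings are not given here, so no excess is read from their counts.

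Among the members lower on ketogenic diet were genes of ATP synthase subunit c, which forms the membrane ring that turns with proton flow. Atp5g1, Atp5g2 and Atp5g3 encode the same mature peptide behind different import sequences. In WT libraries Atp5g1 ranged from 16.9 to 20.7 CPM (median 19.1) on control diet and from 9.52 to 11.6 CPM (median 10.3) on ketogenic diet, with no overlap and a log2 fold change of -0.82 ± 0.06 (adjusted p = 1.85e-08). In KO libraries it was 13.0 to 19.1 CPM (median 15.7) and 8.93 to 11.5 CPM (median 10.2), again with no overlap (-0.65 ± 0.08, adjusted p = 1.27e-05).

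Atp5g2 went from 12.5 to 14.1 CPM (median 12.7) on control diet to 4.74 to 8.06 CPM (median 6.54) on ketogenic diet in WT libraries (-0.94 ± 0.09, adjusted p = 3.63e-07), also without overlap. In KO libraries it went from 7.5 to 11.4 CPM (median 10.4) to 5.64 to 8.0 CPM (median 6.74), with overlap (-0.57 ± 0.10, adjusted p = 0.00029). Atp5g3 was the most abundant of the 3 per length (310, 19.1 and 7.05 CPM per kilobase for Atp5g3, Atp5g2 and Atp5g1 in WT control libraries). In CPM Atp5g1 lay above Atp5g2 there, at means of 18.9 and 13.0, so their order depends on the length used. Atp5g3 had a log2 fold change of 0.05 ± 0.07 in WT libraries and rose by 0.38 ± 0.07 in KO libraries (adjusted p = 0.00038). The calls on Atp5g1 and Atp5g2 stood in all 10 other settings run for each diet comparison. Of the windows of Atp5g2 87.4%, and of Atp5g1 56.2%, are shared with another gene, mainly the pseudogenes Gm10175 and Gm10039, so their counts are uncertain, whereas Atp5g3 shares none.

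**Figure D5:**
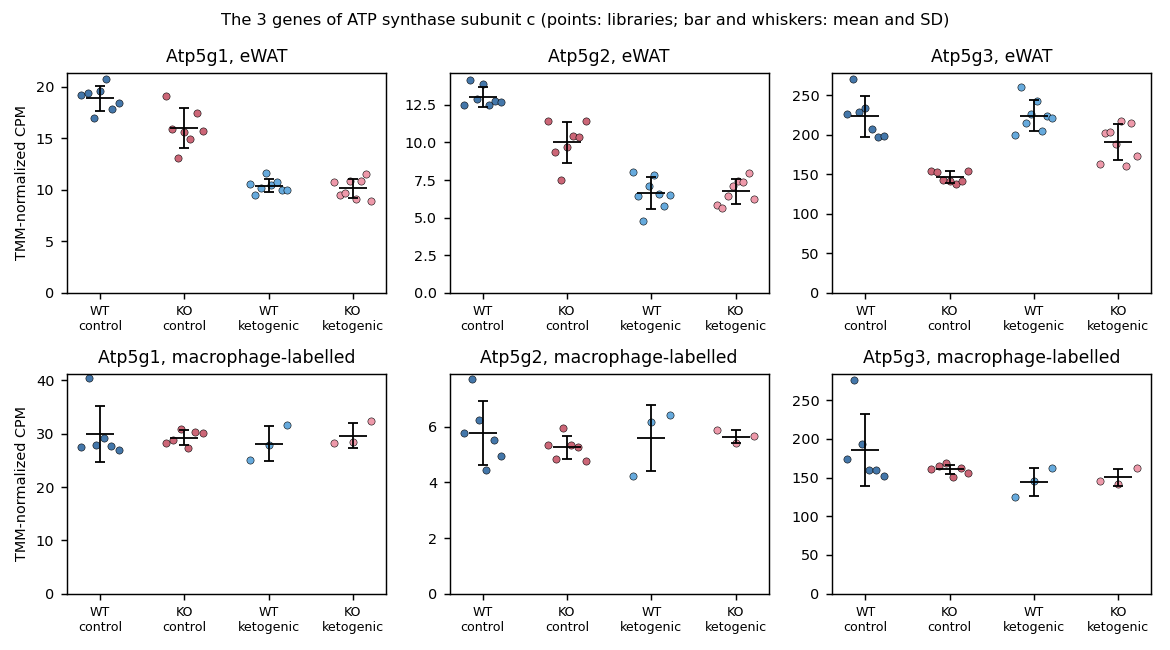
TMM-normalized CPM of the 3 subunit c genes in each library (points) with the mean and SD of each group, for eWAT (top) and macrophage-labelled libraries (bottom). In eWAT Atp5g1 and Atp5g2 are lower on ketogenic diet in both genotypes, with means near 10 and near 7 CPM, while Atp5g3 is lowest in the KO control group, at a mean of 146 CPM.

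The promoters of the 3 genes are shown because their transcripts did not get the same calls. They span 250 bases before to 50 bases after the first listed start in RefSeq (GRCm38.p6), all on the minus strand, at chr11:96075582-96075881 for Atp5g1, chr15:102670998-102671297 for Atp5g2 and chr2:73911277-73911576 for Atp5g3. Capitals mark matches on either strand to GCGCANGCG, a motif of the factor NRF1, and to TCAAGGTCA, a motif of ERR receptors.
Atp5g1: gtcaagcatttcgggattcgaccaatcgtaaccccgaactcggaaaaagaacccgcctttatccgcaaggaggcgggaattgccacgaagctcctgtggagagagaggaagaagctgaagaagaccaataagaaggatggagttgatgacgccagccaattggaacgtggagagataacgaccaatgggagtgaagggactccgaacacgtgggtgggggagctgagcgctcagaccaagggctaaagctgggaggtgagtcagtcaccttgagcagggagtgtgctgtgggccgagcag
Atp5g2: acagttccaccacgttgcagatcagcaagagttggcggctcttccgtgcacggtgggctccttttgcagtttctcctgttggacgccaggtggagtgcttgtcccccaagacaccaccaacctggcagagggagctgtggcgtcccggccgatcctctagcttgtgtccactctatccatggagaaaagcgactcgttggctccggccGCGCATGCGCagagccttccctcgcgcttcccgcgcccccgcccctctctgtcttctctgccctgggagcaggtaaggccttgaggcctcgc
Atp5g3: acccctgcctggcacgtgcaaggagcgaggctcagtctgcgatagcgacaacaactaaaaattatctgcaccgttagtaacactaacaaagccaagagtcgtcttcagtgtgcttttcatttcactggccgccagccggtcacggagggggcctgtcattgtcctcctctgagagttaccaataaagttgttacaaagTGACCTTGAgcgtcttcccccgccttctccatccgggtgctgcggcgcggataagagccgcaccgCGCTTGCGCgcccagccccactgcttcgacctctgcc
The window of Atp5g2 held 2 overlapping NRF1 matches, 1 on each strand, that of Atp5g3 held 1 NRF1 and 1 ERR match, and that of Atp5g1 held none of the motifs searched. A RefSeq promoter was found for 34 member symbols. Of those 32.4% held the NRF1 letters, 11.8% the letters CCGGAAGT of GABP, 5.88% the ERR letters and 2.94% the letters AAGATGGCG of YY1, where 6.47%, 4.0%, 0.407% and 1.5% of 27025 promoters of the same length did. The NRF1 and YY1 letters were shortened after matches to longer forms had been seen, and the ERR and YY1 shares rest on 2 and 1 promoters. No excess is read from these shares. NRF1, GABP and ERR factors are known regulators of respiratory chain genes, and matches describe these windows only.

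In complex II, Sdhb fell by 0.27 ± 0.06 and Sdhc by 0.14 ± 0.06 (adjusted p = 0.049) on ketogenic diet with the WT label, and Sdhc by 0.32 ± 0.07 and Sdhd by 0.19 ± 0.07 with the KO label, on the log2 scale. The call on Sdhc with the WT label was lost in 6 of 10 other settings, that on Sdhb with the GC offset (-0.05 ± 0.06), as was that on Sdhd (-0.14 ± 0.07). In complex III, Uqcrfs1 rose in both genotypes (0.40 ± 0.07 and 0.31 ± 0.07), while Uqcr10 (-0.53 ± 0.08 and -0.28 ± 0.10) and Cyc1 (-0.36 ± 0.08 and -0.41 ± 0.09) fell in both. Uqcrq and Uqcr11 rose in KO libraries by 0.96 ± 0.15 and 0.59 ± 0.16. In WT libraries Uqcr11 fell by 0.25 ± 0.09 and Uqcrq had a log2 fold change of -0.17 ± 0.15. With the GC offset the WT-label calls on Cyc1 (-0.02 ± 0.09) and Uqcr11 (0.11 ± 0.07, sign turned) and the KO-label call on Uqcr10 (-0.15 ± 0.10) were lost. Each KO ketogenic library exceeded each KO control library for Uqcrq, from 38.9 to 56.1 CPM against 15.7 to 36.8 CPM.

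In complex IV, Cox5b, the zinc-binding subunit, rose in both genotypes (0.34 ± 0.09 and 0.33 ± 0.07) and Cox7a2l, a protein that joins complexes III and IV into supercomplexes, fell in both (-0.19 ± 0.06 and -0.19 ± 0.05). Cox6b1 (0.33 ± 0.07), Cox5a (0.32 ± 0.07), Cox7a2 (0.22 ± 0.07) and Cox7b (0.18 ± 0.06) rose with the WT label, and Cox7c rose in both genotypes (0.21 ± 0.07 and 0.36 ± 0.10). In KO libraries Cox8a (0.32 ± 0.06) and Cox6a1 (0.28 ± 0.07) rose and Cox6b2, a form known from testis, fell (-0.54 ± 0.19, from a mean of 2.20 to 1.51 CPM). With the GC offset Cox6b1 kept its call, and Cox5a (0.10 ± 0.07), Cox7a2 (0.11 ± 0.07), Cox7b (-0.10 ± 0.05) and Cox7c (-0.02 ± 0.06) lost theirs with the WT label, the last 2 with the sign turned. With the KO label Cox7c (0.27 ± 0.12), Cox6a1 (0.08 ± 0.09) and Cox6b2 (-0.43 ± 0.19) lost theirs. In complex V, Atp5mpl, a small membrane subunit, rose in both genotypes (0.43 ± 0.07 and 0.24 ± 0.07), as did Atp5f1 (0.25 ± 0.06 and 0.27 ± 0.07), and Atp5h, of the peripheral stalk, fell in both (-0.14 ± 0.05 and -0.34 ± 0.07). With the GC offset Atp5f1 was called in neither genotype (-0.03 ± 0.06 with the WT and 0.15 ± 0.07 with the KO label).

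The mitochondrially encoded members rose with the WT label: mt-Cytb from a median of 10635 to 14531 CPM (0.53 ± 0.09, adjusted p = 0.00013) and mt-Co1 from 17444 to 22432 CPM (0.44 ± 0.08, adjusted p = 3e-04). Their groups overlapped. With the KO label mt-Cytb rose by 0.27 ± 0.10 (adjusted p = 0.047), and mt-Co1 had a log2 fold change of 0.12 ± 0.10. They have a GC content of 39.1% (mt-Cytb) and 39.9% (mt-Co1) and lost their calls with the GC offset, at 0.16 ± 0.10 and 0.08 ± 0.09 with the WT label and 0.08 ± 0.10 for mt-Cytb with the KO label. Mitochondrially encoded genes took a median of 5.25%, 5.93%, 6.77% and 6.43% of gene counts in WT control, KO control, WT ketogenic and KO ketogenic libraries, and nuclear members 0.679%, 0.617%, 0.631% and 0.580%.

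Over all genes 26.8% rose and 27.0% fell with the WT label, and 19.8% and 19.7% with the KO label. Of the 13 regulators 4 rose and 1 fell with the WT label, with Yy1 (0.57 ± 0.04) and Gabpa (0.47 ± 0.04) the largest rises and Polrmt the fall (-0.64 ± 0.09). With the KO label 3 rose, Yy1 (0.51 ± 0.04), Esrra (0.44 ± 0.12) and Gabpa (0.30 ± 0.04). Of the electron carriers Cycs, cytochrome c itself, rose in both genotypes (0.58 ± 0.09 and 0.24 ± 0.09) with Etfa (0.49 ± 0.06 and 0.35 ± 0.08), which feeds electrons from fatty acid oxidation, while Coq4 (-0.76 ± 0.11 and -0.44 ± 0.09) and Coq7 (-0.57 ± 0.10 and -0.48 ± 0.10) of coenzyme Q synthesis fell in both. Complex I had 16 higher and 12 lower of 42 with the WT label and 10 higher and 6 lower with the KO label. In the WT diet comparison 11 of 12 macrophage markers fell, from a summed 1465 to 1914 CPM to 901 to 1280 CPM, 6 of 7 B cell markers fell (498 to 1082 CPM to 294.5 to 1021 CPM), 3 of 6 mesothelial markers fell (119 to 582 CPM to 92.4 to 384 CPM) and 4 of 6 endothelial markers rose (845 to 981 CPM to 926 to 1318 CPM). In the KO diet comparison 5 of 12 macrophage markers (1438 to 2343 CPM to 1051 to 2080 CPM) and 5 of 7 B cell markers (333 to 656 CPM to 273 to 798 CPM) fell, with no call among 6 mesothelial and 6 endothelial markers. Their part in the members' changes was not tested.

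In the macrophage-labelled libraries no member was called between genotypes on either diet. On control diet 0.0820% of 17067 genes were called, and DESeq2 and limma-voom called no member either. An unadjusted p under 0.05 was reached by 1701 genes and 1 member. In Uqcrc1 and Atp5d all KO libraries lay below all WT libraries, which 0.674% of all genes did. The median log2 fold change was -0.12 with 44 of 45 below 0. WT replicate 2 stood apart, and without it the median was -0.02, with 30 below and 15 above 0. On ketogenic diet 0% of 17067 genes were called (edgeR), with 520 genes and no member at an unadjusted p under 0.05, DESeq2 and limma-voom called no member, and the members' log2 fold changes ran from -0.07 to 0.28 around a median of 0.03. Given the libraries that went against the Gm11868 pattern, no genotype direction is read there.

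Between diets, with both genotype labels together, 11 of 45 members fell and none rose in the macrophage-labelled libraries (12 control and 6 ketogenic), where 16.1% of 17573 genes fell and 30.4% changed in either direction. The median log2 fold change was -0.15 against -0.02 over all genes. The summed macrophage markers fell beside them, from 535 to 1760 CPM to 352 to 586 CPM, with all 12 called lower, and their part was not tested. With the GC offset alone 13 members were called, all lower, with a median of -0.14. Of the 11 it kept 10 and lost Sdhd. With offsets for GC content and length the split turned to 5 higher and 7 lower, with a median of -0.02. The shares over all genes with these offsets are not given here.

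Only 2 of the 11 had groups that did not overlap, where 3.72% of all genes had all ketogenic libraries lower. The largest change was in Cox4i2 (chromosome 2, 152754173 to 152765037), the oxygen-regulated isoform of subunit 4 known from lung and vessel wall cells. It ranged from 34.3 to 59.8 CPM (median 37.5) in WT and from 36.5 to 43.2 CPM (median 39.2) in KO control libraries. On ketogenic diet it was 21.6, 24.7 and 30.1 CPM with the WT label and 21.0, 25.8 and 26.4 CPM with the KO label. All 6 ketogenic libraries lay below all 12 control libraries, and the log2 fold change was -0.69 ± 0.10 (adjusted p = 8.49e-05). Its paralog Cox4i1 had -0.15 ± 0.09 (adjusted p = 0.19). The call on Cox4i2 held in all 28 other fits, including each that left out 1 library. In eWAT Cox4i2 ranged from 1.08 to 3.24 CPM over the 4 groups and was called in no comparison.

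Among the other calls Atp5h went from 58.0 to 89.1 CPM over both control groups to 45.1, 57.1 and 55.8 CPM with the WT label and 52.3, 50.5 and 54.8 CPM with the KO label, with no overlap (-0.31 ± 0.08, adjusted p = 0.0062). It held in all 28 other fits. Cox7b (-0.32 ± 0.10), Cox7a2l (-0.28 ± 0.07), Atp5j2 (-0.25 ± 0.09), Atp5c1 (-0.24 ± 0.06), Atp5d (-0.23 ± 0.08), Atp5f1 (-0.23 ± 0.07), Uqcr11 (-0.22 ± 0.08), Uqcrc2 (-0.17 ± 0.06) and Sdhd (-0.15 ± 0.06, adjusted p = 0.050) also fell, each with overlap. Leaving out 1 library lost the call on Sdhd in 9 of 18 fits, on Atp5j2 in 8, on Uqcr11 in 5, on Uqcrc2 in 3 and on Cox7b in 1. With offsets for GC content and length Sdhd, Uqcr11, Uqcrc2, Atp5j2 and Cox7b were not called, and Sdhd and Uqcr11 turned sign. Without the 2 ketogenic libraries that held over 5 CPM of the epididymal gene Crisp1 (WT replicate 3 with 6.81 CPM and KO replicate 1 with 21.8 CPM) 7 members were called, all lower, and without control WT replicate 2 the number was 20. Atp5g1 (-0.03 ± 0.08) and Atp5g2 (0.03 ± 0.11), which fell in eWAT on ketogenic diet, did not pass the test here. Complex I had 17 lower and 1 higher of 42. Among the companion genes Etfb rose most (1.32 ± 0.15), and Ppargc1b, a coactivator of ERR receptors, fell by 0.61 ± 0.10.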

How the data were processed

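The values the authors deposited are raw counts of reads by gene, 1 table a library, not normalized. Per the submitters' processing notes the tools were Trim Galore 0.6.0 and STAR 2.7.8a, with mm10. An annotation release is not stated in any source used here. Per the labels' protocols, eWAT libraries used a stranded kit and macrophage-labelled libraries a low-input kit that marks no strand, so the reverse-strand column was used for the first and the unstranded column for the second. Symbols came from a separate list of names by gene ID, which held 55144 of 55471 IDs. Biotypes, GC content and transcripts came from GENCODE vM21 (GRCm38), which held 55230 of the IDs, and promoters from RefSeq. Rows that name no gene were dropped before any fit (multimapping, unassigned and ambiguous reads were 14.5% to 19.1% of mapped reads).

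Each comparison was fitted over all genes in R 4.3.3 with edgeR 4.0.16 (filterByExpr, TMM, robust quasi-likelihood test, two-sided) and Benjamini-Hochberg adjustment, called at an adjusted p under 0.05. The SE is the absolute log2 fold change divided by the square root of F. CPM was scaled by TMM factors from all libraries of the tissue. Depth ran from 17417852 to 59847259 gene counts. The fits were tested on simulated data. Alternatives were DESeq2 1.42.0 (size factors, Wald test), limma-voom (limma 3.58.1), no low-count filter, offsets for GC content and length (span 0.3), mitochondrial genes left out of the normalization, the unstranded column, all 4 groups in one fit, a replicate block and leaving out 1 library. Fits without libraries holding Crisp1, or without single doubted libraries in the diet and interaction comparisons, were added after seeing the data. Members, lists and the named-gene rule were chosen with earlier results of these data known. Named are the complex II and mitochondrially encoded members, up to 2 called members per complex, direction and comparison with the largest change, isoform pairs, up to 2 called companion genes per list, and some others chosen after their values were seen. The NRF1 and YY1 letters searched in promoters were each shortened by 1 base after matches to longer forms had been seen. No 2 libraries of a group were copies.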

Additional observations from a re-analysis of the deposited data

Results flagged for a closer look

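A gap of 1 library to the rest of its group that was large for the group's range (Dixon's criterion) was found 32 times in 223 groups of a named member, where chance gives about 1 in 20. Of these, 18 were in macrophage-labelled WT control replicate 2. It was the highest of its group for Atp5d (165.7 CPM), Atp5e (53.5), Atp5g1 (40.4), Atp5g3 (276.2), Atp5h (89.1), Cox4i1 (191.2), Cox4i2 (59.8), Cox5b (56.9), Cox6a1 (265.1), Cox7a2l (42.6), Cox7c (18.6), Cox8a (167.3), Cyc1 (144.9), Sdhb (125.3), Sdhc (111.9), Uqcr11 (64.8) and Uqcrq (85.2 CPM), and the lowest for Sdha (230.3 CPM). Macrophage-labelled WT control replicate 3 was highest for mt-Co1 (1003 CPM) and mt-Co2 (0.267 CPM), and replicate 4 for mt-Atp6 (0.086 CPM).

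In eWAT KO control replicate 3 was lowest for Cox4i1 (215 CPM) and Cox6a1 (65.6 CPM) and highest for mt-Co3 (2.90 CPM), and KO control replicate 6 was lowest for Uqcrfs1 (79.7 CPM). WT control replicate 1 was highest for mt-Co2 (23.6 CPM), replicate 3 for Cox6b2 (2.69 CPM) and replicate 5 for mt-Co3 (2.51 CPM), and KO ketogenic replicate 2 for Cox4i2 (2.73 CPM). Cox8c at 0.0511 CPM in eWAT KO control replicate 2 and 0.0222 CPM in macrophage-labelled KO control replicate 4, and Cox7b2 at 0.0861 CPM in eWAT WT ketogenic replicate 2, were single libraries above a group otherwise at 0.

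The genotype difference in eWAT differed between the diets, by the interaction test, for Uqcrq (1.18), Uqcr11 (0.89), Atp5d (0.59) and Atp5g3 (0.37, each as a difference of log2 fold changes). These were 4 of 47 members tested, where 8.31% of all genes were called, so the share was near that of all genes. With the GC offset the calls on Uqcr11 and Atp5d were lost.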

How the results depend on the processing

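The count of members called stayed within 1.5 times under all alternatives run for the eWAT control-diet, diet and interaction comparisons and at 0 for both macrophage-labelled genotype comparisons. In the eWAT ketogenic comparison 2 members became 6 with DESeq2's Wald test and 4 with all 4 groups in one fit. Replicate numbers did not meet the rule for pairing (same-numbered pairs correlated above 0.1 in 7 of 8 there, 4 of 7 in eWAT on control diet, 5 of 6 and 1 of 3 in the macrophage-labelled comparisons), and with the replicate block 25 were called there, 24 with the GC offset as well, and 13 on control diet. In eWAT 10 of 16 ketogenic and 2 of 14 control libraries were most like the library of their own number. In the macrophage-labelled comparisons 6 of 12 control and 6 of 6 ketogenic libraries were. Whether libraries are paired is thus not settled. In the macrophage-labelled diet comparison 11 members became 19 with limma-voom, 27 with the replicate block and 7 without the Crisp1 libraries. The causes were not tested. Leaving out 1 library gave 12 to 17 members in eWAT on control diet, 1 to 7 on ketogenic diet, 0 in both macrophage-labelled genotype comparisons and 6 to 20 between their diets. Among the members named by the rule for largest changes, the sign turned for Cox6a1 on control diet (0.0585 with the GC offset, 0.0897 with GC and length, 0.0563 with block and GC), and with GC and length for Cyc1 between diets with the WT label (0.0227) and for Sdhd (0.0340) and Uqcr11 (0.0629) between macrophage-labelled diets. Over all tested members the GC offset turned the sign of 7 on control diet, 14 between diets with the WT label and 10 with the KO label, called or not.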
